A study of Mus musculus with 99 samples.

Results

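RING1B is the E3 ubiquitin ligase of Polycomb repressive complex 1 (PRC1), and the I53S substitution in its RING domain removes the ligase activity that places ubiquitin on a C-terminal lysine of histone H2A (H2AK119ub1). The regions described here are the RING1B peaks found in mouse embryonic stem cells (ESCs) that expressed only RING1B I53S and that lay at places where the deposited list of the same antibody held no peak in cells expressing wild-type RING1B (RING1B WT). A peak of the RING1B I53S +OHT list was kept if it overlapped no peak of the RING1B WT +OHT list by even 1 bp. This left 926 of 1287 RING1B I53S peaks, or 72.0% (95% Wilson interval 69.4 to 74.3), called off-locus peaks from here on. The other 361 peaks, called on-locus, lay on 355 of the 3941 peaks of RING1B WT (the WT loci), which is 9.01% of them (8.15 to 9.94). The regions were thus selected on the RING1B peak calls of these 2 libraries, so the number 926 and the peak scores are descriptions and carry no test. Both lists are parts of longer sets of calls: peak numbers in their names ran to 6991 for the 3941 listed in RING1B WT and to 5630 for the 1287 listed in RING1B I53S, so an off-locus peak may lie on a RING1B WT peak that was not listed.

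All lines shared 1 background. The Parental line was ROSA26::creERT2 Ring1a-/-; Ring1b fl/fl, that is, without RING1A, with both copies of the RING1B gene flanked by loxP sites and with a Cre recombinase that works only once 4-hydroxytamoxifen (OHT) is given. RING1B WT and RING1B I53S cells were engineered clones of this line that stably expressed FLAG-HA-tagged RING1B of the named form, and the number of clones behind each library is not given in the sources used here. For +OHT samples the cells received 0.5 µM OHT for 72 h, except for 6 JARID2 and MTF2 lists of 48 h by their titles, and for −OHT samples they received ethanol, so that −OHT cells still carried their own RING1B. A further 8 antibody lists came from MTF2-/- derivatives of the 3 lines, called MTF2 knockout lines. Cells were grown in serum with LIF and inhibitors of GSK3β and MEK. ChIP-seq had 1 library for each condition and antibody except JARID2 and MTF2 at 72 h in RING1B I53S and RING1B WT, which had 2 each, and every library has its own list. RNA-seq had 2 libraries for each of 6 groups (Parental, RING1B WT and RING1B I53S, each −OHT and +OHT).

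PRC1 in ESCs is found mostly at CpG islands, the CpG-rich stretches that cover many promoters. Its variant forms contain RYBP or its relative YAF2 together with 1 of several PCGF proteins, and the form with PCGF6 also holds the DNA-binding proteins MGA, MAX and E2F6. PRC2, whose core subunit is SUZ12 and whose accessory subunits include MTF2, JARID2, EPOP and AEBP2, trimethylates lysine 27 of histone H3 (H3K27me3), and the CBX7 subunit of canonical PRC1 binds that mark.

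The CpG content under the peaks is shown by 300 bases centred on the midpoint of 6 off-locus peaks and of 1 on-locus peak, from GRCm38 (mm10), plus strand, with each CpG in capitals. The Cog1, Ksr1 and Fxr2 windows belong to the 3 highest-scoring off-locus peaks with no peak in any other list. Those of Phospho1 and 2610035D17Rik belong to the off-locus peaks found in the largest number of other lists (41), and that of Rsrp1 had the most CpGs of all off-locus windows. The Adamts2 window, added after the values were seen, is from the highest-scoring on-locus peak of chromosome 11 that covers a start site and whose window holds no annotated untranslated region.
Cog1: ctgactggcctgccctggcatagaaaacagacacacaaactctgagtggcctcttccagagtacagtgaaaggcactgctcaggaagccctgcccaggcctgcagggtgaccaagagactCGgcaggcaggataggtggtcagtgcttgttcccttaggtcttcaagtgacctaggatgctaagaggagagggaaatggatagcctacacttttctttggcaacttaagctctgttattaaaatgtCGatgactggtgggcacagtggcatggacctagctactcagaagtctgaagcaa
Ksr1: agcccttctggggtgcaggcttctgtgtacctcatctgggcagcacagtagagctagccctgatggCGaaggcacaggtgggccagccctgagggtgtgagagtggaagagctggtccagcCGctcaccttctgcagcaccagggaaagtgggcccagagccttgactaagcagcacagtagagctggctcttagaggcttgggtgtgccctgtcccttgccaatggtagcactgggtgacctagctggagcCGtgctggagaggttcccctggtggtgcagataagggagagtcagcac
Fxr2: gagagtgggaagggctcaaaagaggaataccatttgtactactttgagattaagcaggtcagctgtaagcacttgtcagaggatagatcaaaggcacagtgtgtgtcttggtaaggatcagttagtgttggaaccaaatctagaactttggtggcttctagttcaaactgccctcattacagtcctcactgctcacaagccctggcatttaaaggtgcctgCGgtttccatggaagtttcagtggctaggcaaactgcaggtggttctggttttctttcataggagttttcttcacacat
Phospho1: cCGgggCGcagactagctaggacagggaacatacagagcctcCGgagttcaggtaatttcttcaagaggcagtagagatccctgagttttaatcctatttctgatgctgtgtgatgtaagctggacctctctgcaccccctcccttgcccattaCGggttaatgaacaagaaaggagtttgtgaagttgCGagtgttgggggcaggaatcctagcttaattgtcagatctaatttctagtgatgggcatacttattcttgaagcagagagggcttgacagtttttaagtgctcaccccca
2610035D17Rik: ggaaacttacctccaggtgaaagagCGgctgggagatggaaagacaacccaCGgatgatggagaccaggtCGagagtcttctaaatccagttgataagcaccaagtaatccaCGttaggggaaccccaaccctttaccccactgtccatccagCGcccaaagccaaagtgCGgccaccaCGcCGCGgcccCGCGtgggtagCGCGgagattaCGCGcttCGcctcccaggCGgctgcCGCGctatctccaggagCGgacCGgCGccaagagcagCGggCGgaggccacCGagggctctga
Rsrp1: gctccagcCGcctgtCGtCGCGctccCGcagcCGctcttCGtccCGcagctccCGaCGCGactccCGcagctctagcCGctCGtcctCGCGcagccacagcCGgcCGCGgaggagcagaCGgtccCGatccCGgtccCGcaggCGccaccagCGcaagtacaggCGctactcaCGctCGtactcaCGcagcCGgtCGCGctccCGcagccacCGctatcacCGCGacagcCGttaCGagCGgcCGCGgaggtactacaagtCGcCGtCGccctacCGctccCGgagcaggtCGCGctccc
Adamts2 (on-locus): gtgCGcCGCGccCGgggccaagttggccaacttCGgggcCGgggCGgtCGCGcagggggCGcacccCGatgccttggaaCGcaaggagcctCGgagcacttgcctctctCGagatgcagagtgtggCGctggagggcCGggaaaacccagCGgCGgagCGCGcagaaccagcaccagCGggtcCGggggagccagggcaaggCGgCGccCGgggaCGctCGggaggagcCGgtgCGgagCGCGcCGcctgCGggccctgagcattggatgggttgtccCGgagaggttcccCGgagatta

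The Cog1 window (chr11:113653200-113653499, intron) held 2 CpGs, the Ksr1 window (chr11:79067126-79067425, intron) 3 and the Fxr2 window (chr11:69648430-69648729, intron) 1. The Phospho1 window (chr11:95825242-95825541, an intron of Phospho1 that also lies in Zfp652) held 5. The 2610035D17Rik window (chr11:113201281-113201580, exon) held 25 and the Rsrp1 window (chr4:134924018-134924317, exon) held 48. The Adamts2 window (chr11:50602412-50602711, at the promoter) held 35. Over all members the median was 5 CpGs in 300 bases, against 23 in on-locus windows.

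Off-locus peaks were weak. Their MACS2 score, the −log10 of the p-value with which a peak was called, ran from 10.0 to 23.6 with a median of 11.1, close to the lowest value of 10 that the lists admit. The on-locus peaks had a median of 13 and reached 65.8, and the WT loci in RING1B WT had a median of 25.1. A score of at least 20 was reached by 5 of 926 off-locus peaks (0.540%) and by 47 of 361 on-locus peaks (13%). The weakest members, at chr11:53288418-53289160 and chr11:54116663-54117802, scored 10.0. Off-locus peaks were 802.5 bp long at the median, on-locus peaks 1038 bp and WT loci 1267 bp.

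The distance to the nearest WT locus had a median of 22991.5 bp and ran from 61 bp to 1236270 bp. Of the members, 53 lay within 1 kb of a WT locus, 184 within 5 kb and 168 farther than 100 kb. The closest pair, at chr11:54940377-54941526 and chr11:88666773-88667450, missed a WT locus by 61 and 149 bp. Just inside the other side of the rule, the on-locus peaks at chr11:6048923-6049910 and chr11:73020570-73022115 shared 3 and 8 bases with one. Widening the WT loci by 1 kb left 873 off-locus peaks. Another member lay within 10 kb for 375 of the 926.

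Off-locus peaks were concentrated on chromosome 11. Of the 926, 672 lay there, or 72.6% (69.6 to 75.3), against 188 of 361 on-locus peaks (52.1%, 46.9 to 57.2) and 708 of 3941 WT loci (18%, 16.8 to 19.2). The difference between off-locus and on-locus peaks was 20.5 percentage points (95% Newcombe interval 14.6 to 26.3). All such intervals cover the counting of regions only, since each list is 1 library and neighbouring regions are not independent. How far 2 libraries can differ is shown by MTF2 in RING1B I53S at 72 h, with 3091 and 7546 peaks, of which some overlapped 12 and 42 off-locus peaks. Chromosome 11 had 5.50 off-locus peaks per Mb and the other chromosomes together 0.0976, a ratio of 56.4, while for WT loci the same ratio was 4.67. The 254 members outside chromosome 11 fell on 17 chromosomes with at most 31 on any (chromosome 10), and chromosomes 3, X and Y had none.

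**Figure D1:**
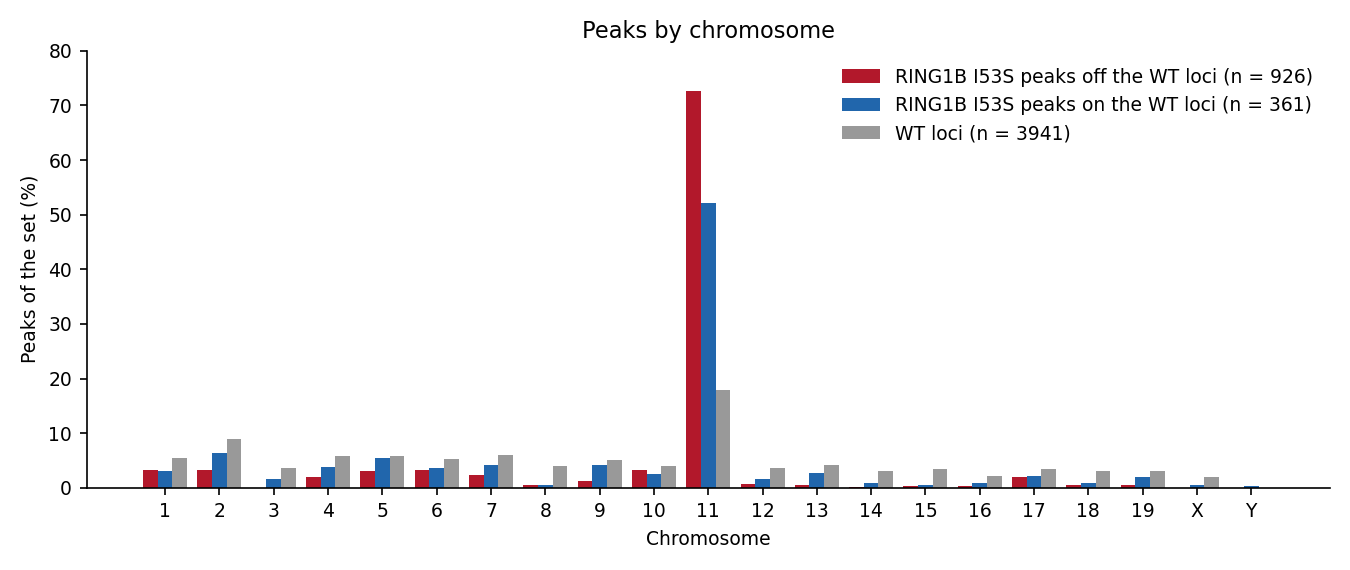
Share of each peak set (%, vertical axis) on each mouse chromosome (horizontal axis), for off-locus RING1B I53S peaks (red, 926), on-locus RING1B I53S peaks (blue, 361) and WT loci (grey, 3941). Chromosome 11 holds 72.6% of the off-locus peaks, 52.1% of the on-locus peaks and 18% of the WT loci, and no other bar of the off-locus peaks passes 5%.

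Other lists reached such a share in few cases. Among the 56 antibody lists with at least 1000 peaks, other than the 2 of the rule, the share on chromosome 11 ran from 9.52% to 67.2% with a median of 15.3%. A share of 50% or more in a list of at least 300 peaks occurred in 5 lists. One was RING1B in Parental +OHT, cells in which both RING1 proteins are meant to be gone, with 570 of 690 peaks (82.6%). The others were from MTF2 knockout lines: SUZ12 and H3K27me3 in Parental +OHT (67.2% and 59.6%) and in RING1B I53S +OHT (62.7% and 52.7%). RING1B in Parental −OHT had 635 of 5073 peaks there (12.5%). Per the file names, every list was called against 1 input library from E14, a different mouse ESC line. The 4 inputs of the MTF2 knockout lines, called in the same way, held 9 to 19 peaks each, with 1 or 2 on chromosome 11 and none on an off-locus peak. The part of the control library in the chromosome 11 share was not tested.

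The share of off-locus peaks on chromosome 11 was high over the range of scores: 68.7% of those with scores from 10 to 11, 74.4% from 11 to 12, 75.7% from 12 to 15, 77.8% from 15 to 20 and 3 of the 5 above. Within the chromosome, 61 lay in the first 15 Mb, 24 between 15 and 50 Mb and 587 from 50 Mb on. Over its 25 bins of 5 Mb the number of members ran from 0 to 123 and followed the GC content (Pearson r = 0.84 over bins) and the number of protein-coding genes (r = 0.72), as a description of 1 library. RING1B peaks of Parental +OHT were spread in the same 3 stretches as 43, 23 and 504. For RNA before OHT, over 1470 genes of chromosome 11, the median log2 fold change was 0.01 for RING1B I53S against Parental and 0.0022 for RING1B WT against Parental. Both engineered lines derive from Parental, so a feature of chromosome 11 that all 3 lines share would not show in these values. RNA of E14, the line of the control library, was not among the samples.

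**Figure D2:**
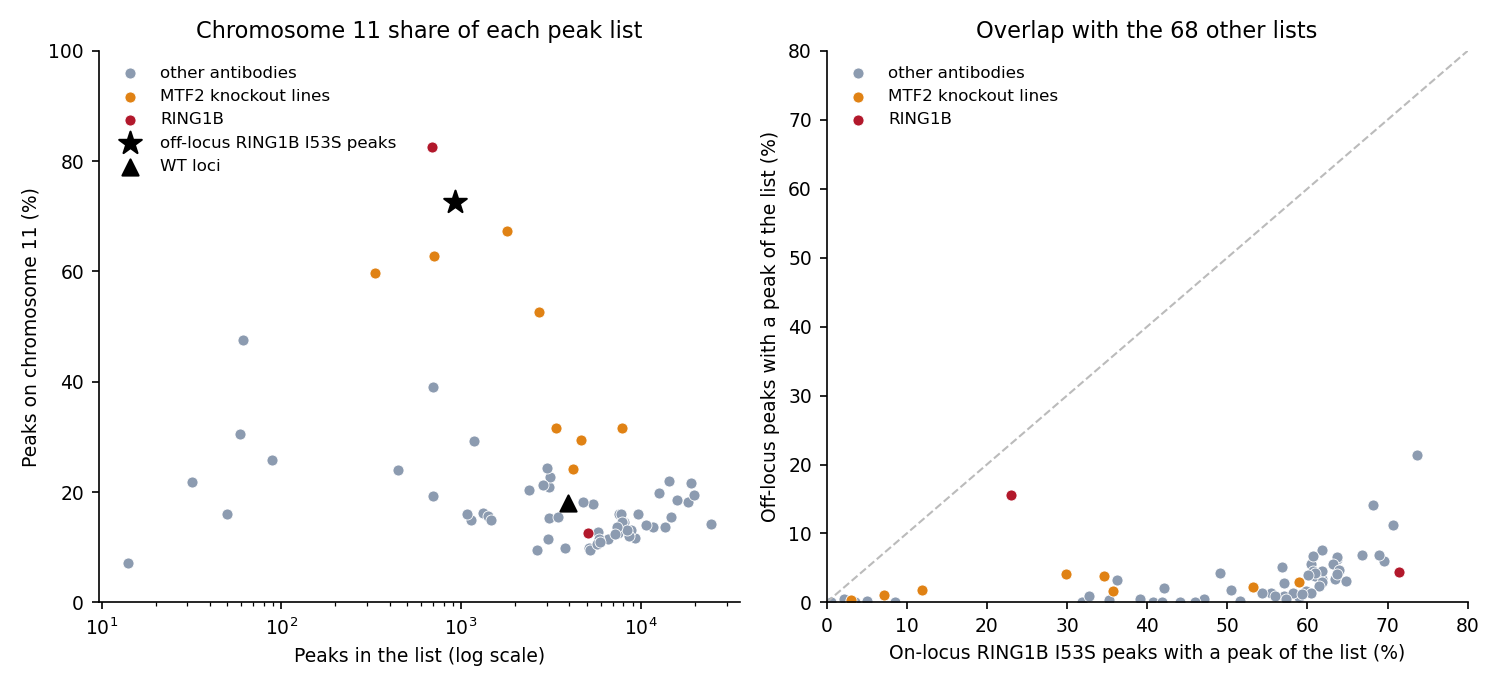
Left, the number of peaks in each of 68 antibody lists (log scale) against the share of them on chromosome 11 (%), with the off-locus RING1B I53S peaks as a star and the WT loci as a triangle. Right, for the same lists, the share of on-locus peaks (horizontal) and of off-locus peaks (vertical) that overlap a peak of the list, where every point lies below the dashed line of equal shares and the RING1B list of Parental +OHT (23.0% and 15.6%) lies nearest to it among lists that reach over 10% of off-locus peaks.

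Off-locus peaks were CpG-poor. The ratio of observed to expected CpGs in the 300-base windows had a median of 0.213, against 0.75 in on-locus windows and 0.749 at WT loci without a RING1B I53S peak. A ratio of at least 0.6, a usual mark of a CpG island, was found in 42 of 926 off-locus windows (4.54%, 3.37 to 6.07) and in 218 of 361 on-locus windows (60.4%, 55.3 to 65.3), a difference of −55.9 points (−60.9 to −50.5). GC content was 54.3% against 64.0%. These medians were alike on chromosome 11 (0.207) and on the others (0.238) for off-locus peaks, while on-locus peaks had 0.336 on chromosome 11 and 0.860 elsewhere. Bases marked as repeats made up a median of 6.67% of off-locus windows.

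Motif letters of factors linked to PRC1 or to CpG-rich promoters were counted in the same windows. CACGTG, the E-box letters read by MAX and MGA, stood on either strand in 67 off-locus windows (7.24%), in 9.70% of on-locus windows and in 7.15% of 32851 promoter windows of the same length. GCGGGAA, E2F-like letters, stood in 1.73%, 9.42% and 4.6%. TGCGCA, part of the NRF1 motif, stood in 2.27%, 9.70% and 7.76%. For the E-box the interval of the difference between off-locus and on-locus windows ran from −6.26 to 0.77 points. For the other 2 motifs that interval lay wholly below 0. All of these motifs contain a CpG, so their counts also depend on the CpG content of the windows. The median CpG ratio was 0.213 in off-locus, 0.75 in on-locus and 0.384 in promoter windows. The part of CpG content in the motif shares was not tested.

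The off-locus peaks lay inside genes. Midpoints fell in introns for 628 (67.8%), in exons for 282 (30.5%) and between genes for 16 (1.73%), although gene bodies of all types cover 44.8% of the genome and 51.6% of chromosome 11. A start site lay within 2.5 kb of 436 peaks (47.1%, 43.9 to 50.3), against 294 of 361 on-locus peaks (81.4%), a difference of −34.4 points (−39.2 to −29.0). A start site lay under the peak itself for 14.4% of off-locus peaks, 33.2% of on-locus peaks and 63.6% of WT loci without a RING1B I53S peak. Along the host gene, from 0 at its start to 1 at its end, the median position was 0.623 for the 865 off-locus peaks in 1 protein-coding gene. It was 0.326 for on-locus peaks and 0.045 for WT loci without a RING1B I53S peak. The last 20% of the gene held 27.2% of those off-locus midpoints and the first 20% held 13.3%.

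**Figure D3:**
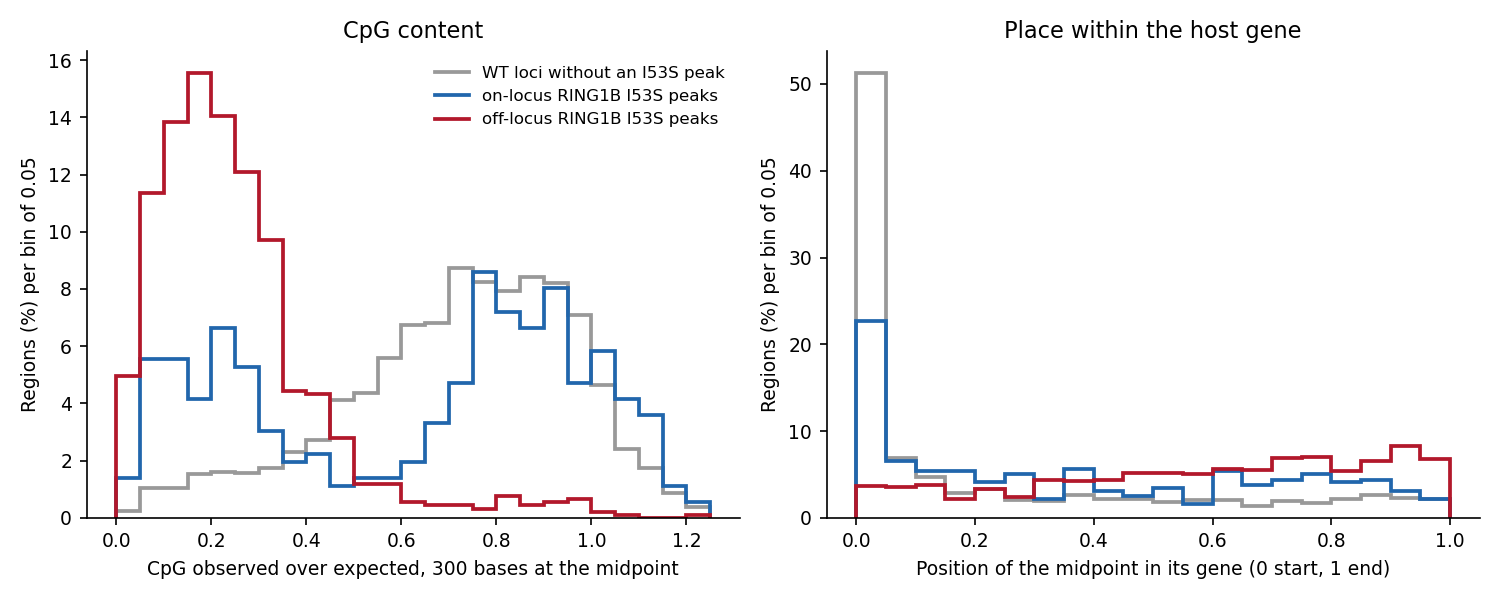
Left, distribution of the observed over expected CpG ratio in 300 bases at the midpoint, and right, of the relative position of the midpoint in its protein-coding host gene, for off-locus (red) and on-locus (blue) RING1B I53S peaks and WT loci without a RING1B I53S peak (grey). The vertical axes give the share of regions (%) per bin of 0.05. The red curve peaks near a ratio of 0.2 and lies along the whole gene, with a median position of 0.623, while the grey curve is high at ratios of 0.7 to 0.9 and at the start of the gene.

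Few off-locus peaks carried another Polycomb protein. In the PCGF6 list of RING1B I53S +OHT a peak overlapped 19 of 926 off-locus peaks (2.05%, 1.32 to 3.18) and 42.1% of on-locus peaks, a difference of −40.1 points (−45.3 to −34.9). In the RYBP list of the same cells it was 8 of 926 (0.864%, 0.438 to 1.70) against 32.7%, a difference of −31.8 points (−36.8 to −27.1). That RYBP list held only 697 peaks. RING1B of Parental −OHT, the cells' own protein, had a peak at 41 off-locus peaks (4.43%, 3.28 to 5.95) and at 71.5% of on-locus peaks. Over all 68 antibody lists the off-locus share was the lower one, with an interval of the difference wholly below 0 in 67. The exception was AEBP2 in Parental +OHT, with 14 peaks in all. By the rule, on-locus peaks lie on a RING1B WT peak and off-locus peaks do not. The 2 sets were thus split by RING1B itself, and a lower overlap of off-locus peaks with Polycomb lists follows in part from that. These differences, and those given below, describe the split and are not a test of the members.

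The RING1B list of Parental +OHT overlapped 144 of the off-locus peaks (15.6%, 13.4 to 18) and 83 of 361 on-locus peaks (23.0%), a difference of −7.44 points (−12.5 to −2.70). On chromosome 11 that list overlapped 135 of 672 off-locus peaks (20.1%) and 70 of 188 on-locus peaks. Elsewhere it overlapped 9 of 254 off-locus peaks (3.54%) and 13 of 173 on-locus peaks. The pooled difference mixes these parts, and a larger share of the off-locus peaks lies on chromosome 11. Seen from the other list, 566 of its 690 peaks lay off the WT loci, and 144 of these (25.4%, 22.0 to 29.2) overlapped an off-locus RING1B I53S peak. At the 144 shared regions the median score was 11.7 in RING1B I53S and 11.9 in Parental +OHT, with the RING1B I53S score higher in 65 and the Parental score higher in 79. The 566 peaks had a median CpG ratio of 0.194, a start site within 2.5 kb for 49.3% and 82.3% of their number on chromosome 11. For the off-locus RING1B I53S peaks the same 3 values were 0.213, 47.1% and 72.6%.

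H2AK119ub1 lists overlapped the members to different degrees. In RING1B WT +OHT a H2AK119ub1 peak lay at 198 off-locus peaks (21.4%, 18.9 to 24.1) and at 73.7% of on-locus peaks, in Parental −OHT at 131 (14.1%), in Parental +OHT at 64 (6.91%) and in RING1B I53S +OHT at 56 (6.05%, 4.69 to 7.77). These lists differ in size, from 15830 peaks in RING1B WT +OHT to 3120 in RING1B I53S +OHT. The authors report that H2AK119ub1 was wholly lost from PRC1 targets in RING1B I53S +OHT cells. A listed peak is a call and not a level of the mark, and what the peaks listed in those cells reflect was not tested. MTF2 of Parental −OHT, the longest list with 24485 peaks, had a peak at 104 (11.2%). Of the 68 lists, 54 overlapped under 5% of the off-locus peaks and 4 overlapped 10% or more. In none of them lay 559 members (60.4%, 57.2 to 63.5), against 10.5% of on-locus peaks, and 64 members lay in 10 or more.

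A small group of members looked like ordinary CpG island promoters. Of the 42 with a CpG ratio of at least 0.6, 41 had a start site within 2.5 kb, 26 had a H2AK119ub1 peak in RING1B WT, 25 had one in RING1B I53S, 12 had a PCGF6 peak and 6 a RYBP peak in RING1B I53S, and 23 lay outside chromosome 11. A PCGF6 and a RYBP peak in RING1B I53S were both found at 6 places, whatever their CpG ratio. These genes were chosen after the values were seen. They included the promoters of Epop, the PRC2 accessory gene (score 17.2, 36 CpGs), of Irf1, an interferon-response transcription factor (14.6, 40 CpGs), of Akap1, an anchor of protein kinase A at mitochondria (12.9, 29 CpGs), and of Ncor1, a nuclear receptor co-repressor (11.1, 41 CpGs). The other 2 lay at Hgs with Arl16 and at Adam11.

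The regions with the highest scores were of several kinds. The peak in an intron of Cog1, a Golgi transport gene (chr11:113652625-113654075, score 23.6), and the Ksr1 and Fxr2 peaks whose bases are shown above had no peak in any other list. At Dus1l, which encodes a tRNA dihydrouridine synthase, the peak (chr11:120791847-120796456, 21.4) spanned 4610 bp and was found in 20 other lists, among them RING1B of Parental −OHT and +OHT but not the H2AK119ub1 list of RING1B WT. The Ckb peak (chr12:111669808-111672221, 21.1), at a creatine kinase gene, lay 182983 bp from a WT locus and in 5 other lists, 4 of them H2AK119ub1. A peak at Sgsm2 and Mir6926 (chr11:74867096-74867831, 20.6) was shared with 1 list, RING1B of Parental −OHT. At chr17:13590361-13591564 (20.3), in an intron of 2700054A10Rik with 47.7% of its window marked as repeat, 17 lists had a peak. The authors kept only uniquely mapped reads, and the part of the repeat in this peak was not tested.

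Next by score came an exon of Rara, the retinoic acid receptor alpha gene (19.6), the promoter of Dynll2 (18.8, 31 CpGs, 21 other lists), an intron of Fbrsl1, whose relatives AUTS2 and FBRS are PRC1 subunits (18.8), the CpG-rich exon of Rsrp1 (18.1) and an intron of Tex2 (18). The Rara, Fbrsl1, Rsrp1 and Tex2 peaks all lay in the H2AK119ub1 list of RING1B WT. Highest among the members with no start site within 2.5 kb, beside the chromosome 17, Rara and Fbrsl1 peaks, were those in introns of Ksr1 and Baiap2 (17.9 each), genes that held 8 and 7 off-locus midpoints. The members found in the most lists were weak and close to WT loci in part: Phospho1 (11, 41 lists, 394 bp from a WT locus), 2610035D17Rik (11.1, 41 lists, 30153 bp) and Cacng4 with Gm11650 (11.3, 37 lists, 205 bp).

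Genes near off-locus peaks were highly expressed. A start site within 2.5 kb gave 453 genes, of which 297 lie on chromosome 11 and 113 also have a WT locus within 2.5 kb of a start site. Of these 453, 363 had enough counts to be tested. In CPM (gene counts scaled to a common library size) per kb of exons, the 347 protein-coding genes had a median level of 12.1 in RING1B I53S +OHT, against 1.68 over all 21923 protein-coding genes and 4.15 over those of chromosome 11. On-locus genes had 2.20 and genes of WT loci 1.36. Among the 25% of genes with the highest level in that group were 66.6% of off-locus genes. Before OHT, in Parental cells, the off-locus median was likewise high at 12.1, and that of genes of WT loci was 0.298. The 567 protein-coding genes that host off-locus midpoints had a median of 10.2 in RING1B I53S +OHT, with 11.2 on chromosome 11 and 8.70 elsewhere.

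**Figure D4:**
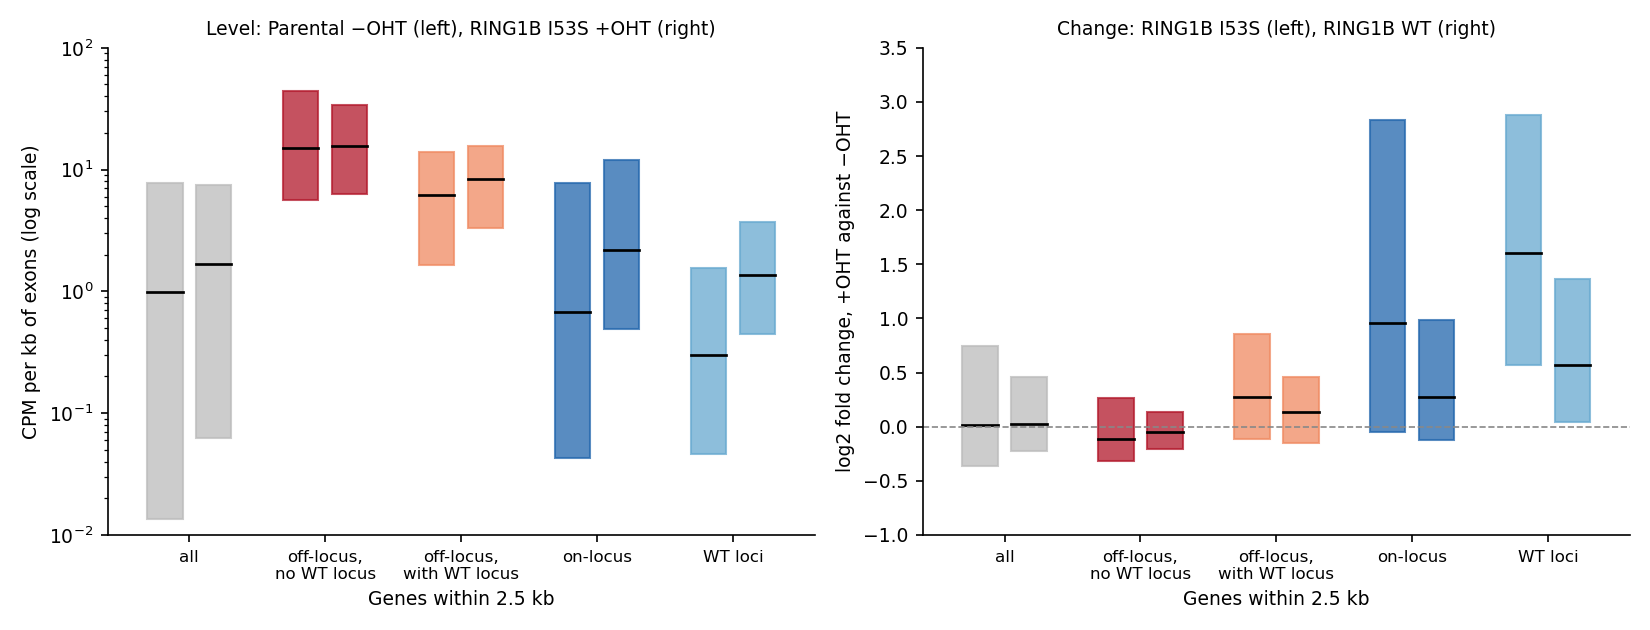
Left, median (line) and quartiles (box) of the level in CPM per kb of exons (log scale) for protein-coding genes within 2.5 kb of each kind of region, in Parental −OHT and RING1B I53S +OHT. Right, median and quartiles of the log2 fold change with OHT in RING1B I53S and RING1B WT for the tested genes of the same sets. Off-locus genes without a WT locus have the highest levels (medians 15 and 15.6) and medians of change near 0 (−0.11 and −0.05), while on-locus genes shifted up in RING1B I53S (0.95).

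With OHT in RING1B I53S cells, 17 of the 363 off-locus genes rose and 1 fell (edgeR quasi-likelihood test with Benjamini-Hochberg adjustment over all 18154 genes; a call needed an adjusted p under 0.05 and a log2 change of 1.5 or more in size). Over all genes tested, 12.8% rose and 1.04% fell, so the off-locus share of 4.68% that rose was below the background. Of the 17, 16 belonged to the 102 tested genes that also have a WT locus. That is 15.7% of the 102, near the 12.8% of all genes and below the 48.4% of all tested genes of WT loci. Of the 261 without one, 1 rose and 1 fell. The number that fell, 1 of 363, was 0 without the second −OHT or the second +OHT library and 3 without the first +OHT library. The median log2 fold change was −0.05 over off-locus genes, −0.11 over those without a WT locus and 0.01 over all genes. Of the 269 on-locus genes 107 rose and 1 fell, with a median of 0.95.

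The other comparisons, which share the same fit, were as follows. In Parental cells 22 off-locus genes rose and 1 fell with OHT (background 15.1% and 1.83%), 6 and 1 of them without a WT locus, and 2 fell without the first −OHT library. In RING1B WT cells 3 rose (Aatk, Adamts2 and Itga2b) and 0 fell (1.34% and 0.0386%). The 3 became 0 without the second −OHT library and 1 without either +OHT library, and 1 gene fell without the first +OHT library. In the fit with all libraries 20 were lower at an unadjusted p under 0.05 in edgeR and 0 were called lower by DESeq2. Between RING1B I53S and RING1B WT, both +OHT, 8 were higher and 0 lower in RING1B I53S (6.02% and 0.6%), all 8 with a WT locus, and 4 were higher without the second RING1B WT library. The 8 were 7.84% of the 102 tested genes with a WT locus, against 27.9% of all tested genes of WT loci. For the direction with no call, 31 genes were lower at an unadjusted p under 0.05 in edgeR and 0 were called by DESeq2. Among genes without a WT locus, none was called in this comparison by edgeR or DESeq2, with 15 higher and 24 lower at an unadjusted p under 0.05.

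The 17 genes that rose are described by name where the rule for named genes took them, and the others by their range. Adamts2, which encodes a procollagen protease, measured 0.231 and 0.479 CPM in RING1B I53S −OHT and 12.7 and 10.7 CPM +OHT. In Parental cells it went from 0.163 and 0.741 to 8.77 and 10.8 CPM, and in RING1B WT from 0.427 and 0.767 to 4.02 and 3.60 CPM. The groups did not overlap in any line, and the log2 fold change in RING1B I53S was 5.04 ± 0.52 (SE, adjusted p = 1.19e-06, edgeR). Of 4 off-locus peaks in its body (scores 10.9 to 12.4, 4122 to 112492 bp from a WT locus), 2 lay within 2.5 kb of an annotated start site, and its promoter is the on-locus peak shown above.

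Lama5, a laminin chain of basement membranes, held 7 off-locus peaks (scores 10.2 to 13.5, 3023 to 42799 bp from a WT locus), 1 of them within 2.5 kb of a start site. It measured 195 and 123 CPM in RING1B I53S −OHT and 487 and 484 CPM +OHT, while RING1B WT had 173 and 175 CPM −OHT and 214 and 213 CPM +OHT. In Parental cells it went from 149 and 149 to 446 and 497 CPM. It rose in RING1B I53S (log2 fold change 1.61 ± 0.19, adjusted p = 7.05e-06, edgeR) and missed the threshold of change when the second −OHT library was left out (1.3). Itga3, an integrin chain, measured 19.0 and 12.9 CPM before and 69.8 and 63.7 CPM after OHT in RING1B I53S (2.06 ± 0.24, adjusted p = 4.13e-06, edgeR). In RING1B WT it went from 17.9 and 11.8 to 24.8 and 27.7 CPM, which was not called (0.82, adjusted p = 0.0788, edgeR).

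Itga2b, another integrin chain, was the 1 gene without a WT locus that rose in RING1B I53S. It went from 4.39 and 2.68 to 15.3 and 25.8 CPM there (2.52 ± 0.40, adjusted p = 0.000102, edgeR), from 5.53 and 3.70 to 28.6 and 26.4 CPM in Parental and from 3.84 and 0.986 to 8.24 and 9.44 CPM in RING1B WT. The groups did not overlap in any line, but its call in RING1B WT (1.86, adjusted p = 0.0289, edgeR) was lost without the second −OHT library (adjusted p = 0.357) and without the first or second +OHT library (0.0658 and 0.224). Its off-locus peak (chr11:102464354-102465190, score 10.9) lay 16693 bp from a WT locus.

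Other genes that rose with OHT in RING1B I53S were the kinase genes Aatk (log2 fold change 3.03), Sphk1, sphingosine kinase (3.23), and Wnk4, a regulator of ion transport (2.98), the adhesion receptor gene Adgrb2 (2.23) and the calcium channel subunit gene Cacng4 (2.68), all of which also rose in Parental cells (2.86, 3.96, 2.7, 2.61 and 2.69). All 5 were higher in RING1B I53S than in RING1B WT with OHT. That call was lost for Aatk without the second RING1B WT library (log2 fold change 1.12) or the second RING1B I53S library (1.5, below the threshold before rounding), for Sphk1 without the first RING1B WT library (adjusted p = 0.0913), and for Cacng4 without the first RING1B I53S (0.137), the first RING1B WT (0.245) or the second RING1B WT library (0.0558). Adamts2 was also higher there and lost the call without the first RING1B I53S library (log2 fold change 1.5, below the threshold before rounding) or without either RING1B WT library (adjusted p = 0.0790 and 0.0807). The remaining 7 genes that rose in RING1B I53S had log2 fold changes from 1.53 (Rhbdf1) to 2.59 (Nacad). Gm11650, which shares its peak with Cacng4, was listed at 0 in both RING1B I53S −OHT libraries and measured 0.500 and 0.516 CPM +OHT. It is 1 of the 17, was not called by DESeq2 (adjusted p = 0.0508) and lost its call without any 1 of its 4 libraries, and reads from the 2 strands were not separated.

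Tex19.2, a germline gene with a close copy in Tex19.1, measured 9.10 and 10.3 CPM in RING1B I53S −OHT and 21.6 and 31.5 CPM +OHT, short of the fold threshold (1.45, adjusted p = 0.000265, edgeR). The authors kept only uniquely mapped reads, so reads that fit both copies equally would not be counted. In Parental cells Tex19.2 passed that threshold (2.36, adjusted p = 1.23e-06, edgeR), from 10.2 and 10.0 to 44.1 and 59.6 CPM. The difference of the log2 fold changes, RING1B I53S minus Parental, was −0.91 and did not pass in a direct test.

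Klf2, a transcription factor of the naive pluripotent state, was the off-locus gene that fell. It measured 85.4 and 118.96 CPM in RING1B I53S −OHT and 37.7 and 32.7 CPM +OHT (log2 fold change −1.54 ± 0.25, adjusted p = 0.000151, edgeR). In Parental cells it went from 77.7 and 139 to 17.7 and 21 CPM (−2.48, adjusted p = 9.28e-07, edgeR), and in RING1B WT from 78.8 and 106 to 58.3 and 64.2 CPM, which was not called (−0.59). The call in RING1B I53S was lost without the second −OHT library (−1.29) or the second +OHT library (−1.45). Its peak (chr8:72319026-72320266, score 16.4, 37 CpGs) lay over the start site, 624962 bp from a WT locus. It overlapped a peak in the H2AK119ub1 list of RING1B I53S but none in that of RING1B WT. Tbx3, a T-box factor also of the pluripotency network, measured 297 and 265 CPM before and 226 and 211 CPM after OHT in RING1B I53S (−0.36, adjusted p = 0.130, edgeR). In Parental cells it went from 381 and 296 to 189 and 190 CPM (−0.84, adjusted p = 0.000945, edgeR), short of the fold threshold. With OHT it was lower in RING1B I53S than in RING1B WT (−0.61, adjusted p = 0.0240, edgeR), also short of that threshold. Its peak (chr5:119680423-119681093, score 14, 30 CpGs) lay 121533 bp from a WT locus and in the H2AK119ub1 lists of RING1B WT and RING1B I53S.

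The genes of the highest-scoring regions were not called. Cog1 measured 57.5 and 40.6 CPM before and 44.8 and 49.0 CPM after OHT in RING1B I53S (log2 fold change −0.07 ± 0.26), Dus1l 179 and 203 and then 126 and 182 CPM (−0.31 ± 0.19), and Ckb 1312 and 1404 and then 1102 and 1440 CPM (−0.09 ± 0.16). None of the 3 passed the threshold in any of the 4 comparisons. The same was true of Sgsm2, Dynll2, Rsrp1, Tex2, Fxr2, Ksr1, Baiap2, Rara and Fbrsl1. The last of these measured 37.3 and 37.0 CPM before and 28.2 and 16.9 CPM after OHT in RING1B I53S (−0.72 ± 0.23, adjusted p = 0.0228, edgeR), short of the fold threshold.

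**Figure D5:**
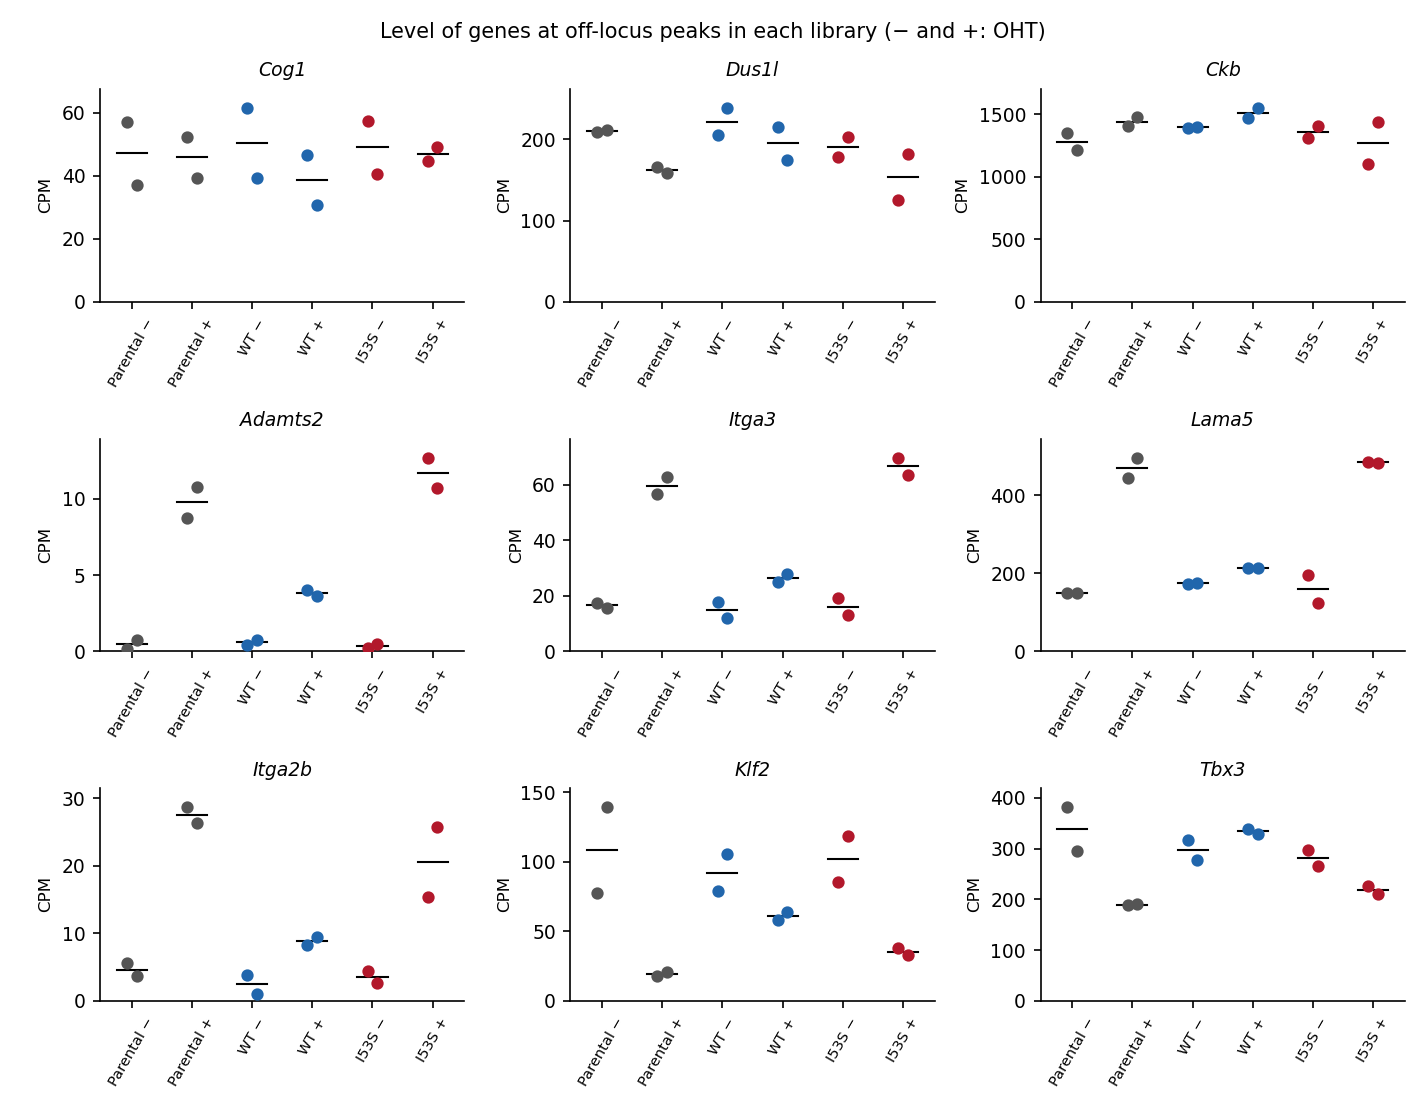
Level in CPM (vertical axes, from 0) of 9 genes at off-locus peaks in each of 12 RNA libraries, 2 per group (points) with their mean (line), for Parental (grey), RING1B WT (blue) and RING1B I53S (red) cells without (−) and with (+) OHT. Cog1 overlaps between −OHT and +OHT in every line, Dus1l and Ckb do so in RING1B I53S but not in Parental, Adamts2, Itga3, Lama5 and Itga2b are highest in Parental +OHT and RING1B I53S +OHT, and Klf2 and Tbx3 are lowest there.

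Few genes of the Polycomb-related lists had an off-locus peak, as few genes did in all: 347 of 21923 protein-coding genes (1.58%) had a start site within 2.5 kb of one, and 13.3% had a WT locus. At these list sizes the counts say nothing particular about the lists. None of 52 germline and meiosis genes, the class repressed through PCGF6 complexes, had a start site within 2.5 kb of an off-locus peak, although 21 had a WT locus and 26 of the 49 tested rose with OHT in RING1B I53S. The 52 include Zfp42, also 1 of the 15 pluripotency genes, but not Tex19.2, which had an off-locus peak. None of 32 PRC1 genes had one, with Fbrsl1 as the host of a midpoint. Among 41 lineage factors 1 (Tbx3) had an off-locus peak and 40 a WT locus, with 32 of 38 tested up. Of 15 pluripotency genes 2 (Klf2 and Tbx3) had one, while 4 of the 15 fell in RING1B I53S. Over all genes tested, 12.8% rose and 1.04% fell with OHT in RING1B I53S.

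The cells themselves also changed with OHT. Rnf2, the RING1B gene, measured 198 and 257 CPM in Parental −OHT and 144 and 166 CPM +OHT (−0.55 ± 0.20, adjusted p = 0.0346, edgeR), and 166 and 238 CPM in RING1B I53S +OHT, where counts over the whole gene do not tell the deleted from the remaining exons or the transgene. The summed level of 10 ESC markers was 5920 to 7646 CPM in −OHT libraries, 5952 and 6121 in RING1B WT +OHT, and 3619 to 3713 in RING1B I53S +OHT and 3401 to 3435 in Parental +OHT, with none at 0. The sum of 6 primitive endoderm markers was 3.09 to 4.70 CPM in −OHT libraries, 8.94 and 12.8 CPM in RING1B WT +OHT and 38.3 and 39.0 CPM in RING1B I53S +OHT, where all 6 rose (Gata6 and Sox7 were at 0 in Parental −OHT). In Parental +OHT the sum was 48.5 and 50.3 CPM, and all 6 rose there too. Sums of 7 fibroblast markers were 10.2 to 15.6 CPM −OHT and 47.2 to 55.2 CPM in RING1B I53S +OHT, where 3 of 5 tested rose, with Col3a1 and Postn at 0 in all 3 −OHT groups. These sums were 21.2 and 23.2 CPM in RING1B WT +OHT and 57.7 and 55.3 CPM in Parental +OHT, where 4 rose. For 6 markers of 2-cell-like cells, 3 of them tested, Parental +OHT had 12.8 and 7.59 CPM and 2 rose. RING1B I53S +OHT had 0.200 and 0.859 CPM and 0 rose. Beside these counts, 12.8% of all genes tested rose in RING1B I53S and 15.1% in Parental. Fewer cells of a type and less RNA per cell cannot be told apart in such bulk samples, and the part of these shifts in the gene results was not tested.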

How the data were processed

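Peak lists and gene counts deposited by the authors were used as they stand. For ChIP-seq, the authors aligned reads to mm10 (GRCm38) with Bowtie 1.2.2, removed duplicates and called peaks per library with MACS2 2.1.1; the score deposited with each peak is −log10 of its p-value, and listed peaks score 10 or more. The lists hold no read counts, so ChIP depth is unknown. For RNA-seq, the authors aligned with STAR 2.7 and deposited raw counts per gene from featureCounts without strand, for 12 libraries with 8140106 to 12743460 counts. Their tables of normalized values and of comparisons by DESeq2 1.20 (mean level, shrunken fold change, adjusted p) were not used.

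Overlap meant 1 shared bp. Genes were those with a GENCODE M21 start site within 2.5 kb. Shares have 95% Wilson and differences Newcombe intervals, which cover counting only. Counts were tested with edgeR 4.0.16 (R 4.3.3; TMM, filterByExpr, all 6 groups in 1 quasi-likelihood fit), keeping 18154 genes, with DESeq2 1.42.0 as an alternative. A gene was called at an adjusted p under 0.05 and a log2 change of 1.5 or more in either direction. Nothing says that replicates came from separate cultures, so p-values measure the spread between these libraries, which may be technical. On simulated counts for the RING1B I53S comparison (17133 genes), 78%, 90% and 96% of genes changed by 2, 3 and 5 on the log2 scale were called and 0% of those changed by 1.

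The regions, gene lists and rules were chosen with earlier results of these data known. Named were the highest-scoring peaks, overall and without a gene within 2.5 kb, those in the most and the fewest other lists, the genes with the largest calls in each comparison, and list members with an off-locus peak.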

Additional observations from a re-analysis of the deposited data

Results flagged for a closer look

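Lama5, the laminin chain gene with 7 off-locus peaks in its body, was singled out because its response to OHT differed between RING1B I53S and RING1B WT by a test of the difference itself. The log2 fold change with OHT was 1.32 higher in RING1B I53S than in RING1B WT (SE 0.27, adjusted p = 0.0286, edgeR interaction term). The difference was 1.32 to 1.33 with RLE scaling (adjusted p = 0.0270), without the filter on low counts (0.000765) and with a replicate block (0.0105). It was the only one of the 363 tested off-locus genes to pass, while 27 had an unadjusted p under 0.05. Over all genes the same difference passed for 41 genes in the positive and 37 in the negative direction. The response of Lama5 was not particular to RING1B I53S. In Parental cells Lama5 rose too (log2 fold change 1.66), and the difference of RING1B I53S minus Parental was −0.05. That second difference passed for 0 of all 18154 genes.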

How the results depend on the processing

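Of 134 alternatives, 84 kept a count within 1.5 times its value or a share within its 95% interval, and 50 moved it beyond that. With RING1B I53S peaks of score 20 or more, 5 off-locus peaks remained, with overlaps of 0% for PCGF6 and RYBP, 60% for RING1B of Parental −OHT and 20% for Parental +OHT, and 80% within 2.5 kb of a start site. Outside chromosome 11, an alternative chosen after seeing the data, 254 were left, with 1.18% (PCGF6), 0% (RYBP), 1.18% (RING1B of Parental −OHT), 3.54% (Parental +OHT) and 51.2% near a start site. On chromosome 11 alone the Parental +OHT share was 20.1%. With scores of at least 20 in the other list the 4 overlaps were 0.324%, 0.108%, 0.756% and 0.324%. With 50% of the peak covered, those with Parental −OHT and +OHT were 2.16% and 10.4%. Within 1 kb of a start site lay 30.7%.

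Off-locus genes that rose in RING1B I53S numbered 43 with no fold threshold, 8 within 1 kb, 1 without genes of WT loci and 2 outside chromosome 11. For Parental these were 57, 11, 6 and 4, for RING1B WT 6, 1, 1 and 0, and for RING1B I53S against RING1B WT 25, 5, 0 and 1. Those that fell numbered 28 in RING1B I53S, 48 in Parental and 8 in RING1B I53S against RING1B WT with no fold threshold. The shares of all genes that rose or fell with no fold threshold were not computed, so those counts have no background. Without the filter on low counts 2 fell in Parental and 1 in RING1B WT. Leaving out 1 library at a time gave 12 to 19 higher and 0 to 3 lower in RING1B I53S, 17 to 22 and 1 to 2 in Parental, 0 to 2 and 0 to 1 in RING1B WT, and 4 to 8 and 0 to 0 between RING1B I53S and RING1B WT, where the lone library of an arm is assumed to vary like the other groups. The cause of these moves was not tested beyond the smaller sets that the alternatives themselves make.

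The labels do not say what a replicate number marks. With the replicate number as a block, 18 genes were higher and 1 lower in RING1B I53S, 22 and 1 in Parental, 4 and 0 in RING1B WT, and 8 and 0 between RING1B I53S and RING1B WT. The differences between replicates 1 and 2 correlated at 0.228 to 0.301 between lines within −OHT, at 0.134 to 0.181 within +OHT and at -0.0033 to 0.198 between −OHT and +OHT groups. Same-numbered libraries thus deviated together in part, most within −OHT. The highest value between treatments, 0.198 for RING1B I53S −OHT and +OHT, was above those within +OHT. ChIP depth is unknown, which limits what a missing overlap can say.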
